A study of Mus musculus with 6 samples.

Results

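The 10 histone deacetylases that depend on zinc and belong to classes I, IIa and IIb were measured in group 2 innate lymphoid cells (ILC2s) of neonatal mouse lung. The members are Hdac1 to Hdac10, and each was found as the entry that carries its symbol, so that 10 of the 55394 genes in the files are described. Class I holds 4 of them (Hdac1, Hdac2, Hdac3 and Hdac8), class IIa holds 4 (Hdac4, Hdac5, Hdac7 and Hdac9) and class IIb holds 2 (Hdac6 and Hdac10). Pups were born to dams that the labels give as C57BL/6 and the methods as C57BL/6J, kept under specific pathogen-free conditions. In the Abx group the dams drank a cocktail of ampicillin, metronidazole, neomycin and vancomycin from gestation day 10 to 14, and in the Con group the dams were controls. Each group had 3 libraries, and each library was made from 1000 sorted CD45+Lin-CD90.2+CD25+ cells by SMART-seq, a method that amplifies full-length cDNA from few cells. Exact age and sex of the pups are not given in the labels. The labels do not say whether libraries of a group came from separate animals either, so p-values measure the spread between these libraries, which may be technical.

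Histone deacetylases remove acetyl groups from lysines of histones and other proteins, and on chromatin this usually goes with lower transcription. Class I enzymes sit in the nucleus, mostly as catalytic subunits of the SIN3, NuRD, CoREST, NCoR/SMRT and MiDAC corepressor complexes, with Hdac8 acting outside them. Class IIa enzymes have weak catalytic activity of their own, bind MEF2 factors and move to the cytoplasm when kinases phosphorylate them and 14-3-3 proteins hold them. Butyrate, a short-chain fatty acid made by gut bacteria, inhibits class I and several class IIa enzymes and also acts through the receptors Ffar2, Ffar3 and Hcar2. The comparison between groups therefore asked whether the transcripts of these enzymes and receptors differed in ILC2s after maternal exposure to antibiotics.

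Levels are given as FPKM, fragments scaled by transcript length and by mapped fragments, which allows levels to be set side by side between genes. Total FPKM per library ranged from 420941 to 449523 in Con and from 431613 to 489262 in Abx. Fewer genes reached 1 FPKM in each Abx library (7074 to 8193) than in each Con library (8574 to 9203), and the part of this in the comparisons was not tested. Read numbers are not known, so the counting error of the values cannot be estimated. A listing at 0 was not read as absence of the transcript. Polr2h, an essential polymerase subunit, was at 71.3 FPKM in Abx library 2 and listed at 0 in Abx library 3. Of the genes listed as ILC2 markers, which include effector genes, 13 of 14 passed the filter on low values. The list summed to 2862 to 3271 FPKM in Con, against 2176 to 2755 FPKM in Abx, but its genes did not fall together. The log2 difference, Abx minus Con, was positive in 7 of the 13 and negative in 6, with a median of 0.03. Without overlap, Areg, Arg1 and Icos were lower and Ptprc was higher in Abx, as 8.73% and 8.49% of all genes tested were. Il1rl1, the IL-33 receptor that helps to define ILC2s, did not pass the filter. It was at 0.06, 0.89 and 2.94 FPKM in Con, against 0.03, 0.01 and 0.03 FPKM in Abx. These values were lower in Abx without overlap, but only 1 library reached 1 FPKM.

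The promoters are shown for 3 members that stand for the range of the family, namely Hdac2 as a member present in all 6 libraries, Hdac9 as a member at or near 0 throughout, and Hdac8 as the member that separated the groups. Bases come from the RefSeq promoter table of GRCm38.p6 and run 5′ to 3′ on the strand of the gene, ending at the base before the start site in Hdac2 and Hdac9. Capitals mark matches to any of the 7 motifs searched.
Hdac2, chr10:36974294-36974543, plus strand: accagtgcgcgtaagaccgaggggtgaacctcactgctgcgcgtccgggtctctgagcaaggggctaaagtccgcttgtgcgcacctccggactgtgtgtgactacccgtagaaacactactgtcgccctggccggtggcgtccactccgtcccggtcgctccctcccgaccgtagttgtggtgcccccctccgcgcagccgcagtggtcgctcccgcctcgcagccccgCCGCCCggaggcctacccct
Hdac9, chr12:34917096-34917345, minus strand: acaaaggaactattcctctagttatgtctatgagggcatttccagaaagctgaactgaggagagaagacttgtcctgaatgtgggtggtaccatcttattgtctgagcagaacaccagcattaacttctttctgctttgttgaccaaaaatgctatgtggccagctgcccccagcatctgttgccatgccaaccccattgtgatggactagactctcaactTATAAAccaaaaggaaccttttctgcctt
Hdac8, chrX:102505360-102505408, minus strand: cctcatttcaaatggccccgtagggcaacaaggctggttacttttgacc

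The 250 bases before the RefSeq start of Hdac8 overlap the annotated span of the gene, so only the 49 bases outside that span are printed. Counted over the full 250 bases, the Hdac2 promoter held 27 CpG dinucleotides, more than 91.4% of the 32851 promoter entries had. Hdac8 held 6, the median of all entries, and this start of Hdac9 held 0. Among the other members with an entry, Hdac4 held 23, Hdac6 held 17, Hdac5 held 12 and the 4 starts of Hdac7 held 5 to 25. No entry was matched for Hdac1, Hdac3 and Hdac10.

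Motifs were searched on both strands. GGGCGG, the GC box, was found in 5 of the 11 member entries (Hdac2, Hdac4, Hdac5, Hdac6 and a start of Hdac7) and in 32.7% of all entries. CCAAT was found in 4 (Hdac4, Hdac5, Hdac6 and Hdac8) and in 33.8% of all entries. TATAAA was found in 2 (Hdac8 and Hdac9) and in 12.4% of all entries. In Hdac8 the CCAAT matches of both strands overlap each other, and they and the TATAAA match all lie within the annotated span of the gene. The ETS core CGGAAG was found in Hdac6 alone among the members and in 13.6% of all entries. TGACGTCA, the NRF1 motif and CACGTG were found in 0 member entries and in 1.55%, 3.74% and 6.02% of all entries. These matches are descriptions of the letters in these windows.

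Class I transcripts made up most of the family in every library, from 86.2% to 96.4% of the summed FPKM of the 10 genes in Con and from 86.1% to 98.7% in Abx. Hdac1 had the highest level of the family in the 3 Con libraries and in Abx library 3, and Hdac8 had the highest in Abx libraries 1 and 2. The order by mean over the 6 libraries was Hdac1, Hdac8, Hdac2, Hdac3, Hdac10, Hdac6, Hdac4, Hdac5, Hdac7 and Hdac9. It pools the groups, and Hdac8 was above Hdac2 in 0 of 3 Con libraries and in 2 of 3 Abx libraries. Few steps in that order held in all 6 libraries. Hdac4 was above Hdac5 and Hdac7 above Hdac9 in 6 of 6, and Hdac2 was above Hdac3 in 5 of 6. Hdac1 was above Hdac8 in 4 of 6, and the remaining neighbours exchanged places between libraries.

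**Figure D1:**
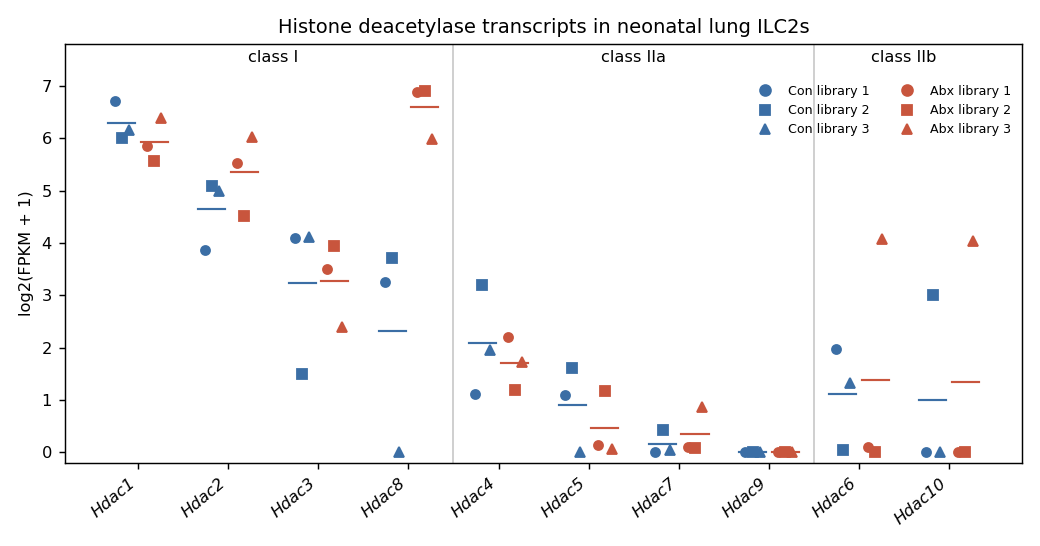
Level of each histone deacetylase, as log2(FPKM + 1), in the 6 libraries, with Con in blue and Abx in red, a marker shape per library number and a horizontal line at the mean of each group. Hdac8 is the member whose Abx libraries all lie above all Con libraries, and the class IIb genes are high in single libraries.

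For the comparison of groups, the 8718 genes that reached 1 FPKM in 3 or more libraries were tested two-sided with limma on log2(FPKM + 1), and p-values were adjusted over all of them by the Benjamini-Hochberg method. Calls needed a more than 2-fold change together with an adjusted p below 0.05. Of all genes tested 0.0574% were called, 0.0459% as higher in Abx and 0.0115% as lower. Of the 10 members, 7 passed the filter and 0 were called by limma, while 1 (Hdac8) had an unadjusted p under 0.05, a level that 11.0% of all genes tested reached. In Hdac8 the Abx libraries lay above the Con libraries without overlap, as they did in 8.49% of all genes tested, and in 0 members they lay below without overlap, as in 8.73% of all genes tested. The fitted difference, Abx minus Con, was positive in 4 of the 7 members tested and negative in 3. Its median over these members was 0.04 on the log2 scale, against -0.06 over all genes tested.

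Hdac8 (ENSMUSG00000067567, chromosome X from 102284639 to 102505359, minus strand) encodes a class I enzyme known for deacetylating the cohesin subunit SMC3. Its level was 8.51, 12.2 and 0 FPKM in Con libraries 1, 2 and 3, and 117, 118 and 62.4 FPKM in Abx libraries 1, 2 and 3. Every Abx library was thus above every Con library, and the lowest Abx value was 5.12 times the highest Con value. The fitted difference was 4.26 on the log2(FPKM + 1) scale (standard error 0.95, 95% confidence interval 2.06 to 6.47), with an unadjusted limma p of 0.00228 and a limma adjusted p of 0.111. The exact two-sided permutation test gave p = 0.1, the smallest p that 3 libraries against 3 allow. The difference was larger than that of 99.9% of the genes tested, but 179 genes had an unadjusted p at or below it.

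The Hdac8 difference was fitted in 15 alternatives, of which taking every entry with the symbol repeats the main fit. As every Abx value was above every Con value, leaving out a library or changing the pseudocount or filter could not turn its sign. The direction, the same in all, is therefore not counted as support. The size of the difference varied. It ranged from 3.10, without Con library 3, to 6.55, at a pseudocount of 0.01. The limma adjusted p stayed between 0.110 and 0.561 in these alternatives, so that Hdac8 was called in none of those that use an adjusted p. Its spread within groups, a residual SD of 1.48 on the log2 scale, was above that of 78% of the genes tested.

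Hdac8 had the highest fitted difference of the 274 X-linked genes tested, whose median was -0.14, against -0.07 for 8397 autosomal genes. Tested genes within 500 kb of it, a window chosen after its values were seen, did not show a like difference. Rps4x, a ribosomal protein gene, was at 260 to 318 FPKM in Con, against 276 to 406 FPKM in Abx, a fitted difference of 0.30 (limma adjusted p = 0.702). Pin4, a prolyl isomerase gene, was at 48.2, 22.9 and 32.7 FPKM in Con, against 215, 75.9 and 0 FPKM in Abx, a fitted difference of -0.42 (limma adjusted p = 0.954). H3f3a-ps1, a processed pseudogene, had a fitted difference of 0.37 (limma adjusted p = 0.876). Phka1, the upstream neighbour of Hdac8, stayed at or under 1.46 FPKM, and Gm14858, which overlaps Hdac8 on the other strand, was listed at 0 in all 6 libraries.

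Some sex-linked genes also separated the groups. Xist, the RNA of the inactive X chromosome, was at 3.78, 4.38 and 5.09 FPKM in Con and was listed at 0 in every Abx library. Eif2s3y, on the Y chromosome, was at 0.03, 0.58 and 0.86 FPKM in Con, against 22.8, 11.9 and 24.4 FPKM in Abx. Xist passed the filter through the Con libraries alone and Eif2s3y through the Abx libraries alone, so that by the filter both had to differ. Ddx3y, also Y-linked, overlapped between groups, at 0.38, 0.01 and 0.05 FPKM in Con, against 0.07, 7.07 and 5 FPKM in Abx. A difference in the sex of the pups and the maternal exposure cannot be told apart in these groups.

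Of the cell type markers, the T cell list (11 genes, 7 tested, 0 called) had 4 genes higher at an unadjusted p under 0.05. Of all genes tested, 4.74% were higher at that level. The T cell list summed to 1235 to 1411 FPKM in Con, against 2553 to 2899 FPKM in Abx. Most of that sum came from the T cell receptor constant genes Trbc1 and Trbc2, while the defining marker Cd4 was listed at 0 in 5 of 6 libraries and Cd8a in 4 of 6. Cd3d was at 4.46 to 8.32 FPKM in Con and at 37.2 to 108 FPKM in Abx, and Cd8b1 at 0 to 10.2 FPKM and 27.1 to 52.2 FPKM. Other members overlapped between groups. Trac, the constant gene of the alpha chain, was at 3.01 to 11.7 FPKM in Con and 0.22 to 21.2 FPKM in Abx. Cd3e was at 1.55 to 7.57 FPKM and 4.31 to 18.5 FPKM. Cd5 and Cd6, which were not tested, overlapped too. The B cell list (10 genes, 8 tested, 0 called) summed to 386 to 513 FPKM in Con, against 857 to 904 FPKM in Abx, and its transcription factor Ebf1 was under 1 FPKM throughout. Most of that sum came from the immunoglobulin genes Ighm and Igkc. Of the list, 3 genes were higher and 2 (Cd22 and Cd79b) lower in Abx without overlap, where 8.49% and 8.73% of all genes tested were. Cd22 was at 3.79, 11.0 and 2.74 FPKM in Con, against 0.19, 0.06 and 1.33 FPKM in Abx. The thymocyte list (7 genes, 4 tested, 0 called) summed to 236 to 371 FPKM in Con, against 219 to 366 FPKM in Abx, with Rag2 at 0 in all libraries, and within it Dntt was at 0.02 to 11.6 FPKM in Con and 75.9 to 156 FPKM in Abx. Ptcra was at 0 to 6.13 FPKM in Con and 15.2 to 63.1 FPKM in Abx. Rag1, which was not tested, was at 0 to 0.86 FPKM in Con and 0.99 to 12.3 FPKM in Abx. Arpp21, the most abundant gene of that list, was the other way round, at 216 to 364 FPKM in Con and 45.4 to 168 FPKM in Abx. Cd1d1 and Themis overlapped between groups. Of the NK cell list (8 genes, 1 tested, 0 called), Gzma was at 215 to 224 FPKM in Abx and 0 to 13.8 FPKM in Con. Ncr1 was at 7.9, 0 and 0 FPKM and Klrk1 at 1.67, 5.28 and 0 FPKM in Con. Both were listed at 0 in every Abx library. Klrb1c, Prf1, Klra8 and Klra4 were at 0 throughout. Other lists also held genes without overlap, where 8.49% of all genes tested were higher and 8.73% lower. Mcpt8, of the mast cell and basophil list, was at 21.8 to 36.9 FPKM in Con and 1.56 to 10.9 FPKM in Abx. Hbb-bt, of the erythroid list, was at 215 to 247 FPKM and 63.6 to 147 FPKM. In the epithelial list Sftpa1 was lower and Sftpc higher in Abx. In the myeloid and endothelial lists 0 tested genes separated. The part of the marker transcripts in the Hdac8 difference was not tested. By the methods, the lineage cocktail of the sort was meant to remove cells with surface CD3e, CD4, CD8a, CD5 or TCR-β, with B220 and with NK1.1. In bulk libraries, more cells of a type and more RNA per cell cannot be told apart.

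**Figure D2:**
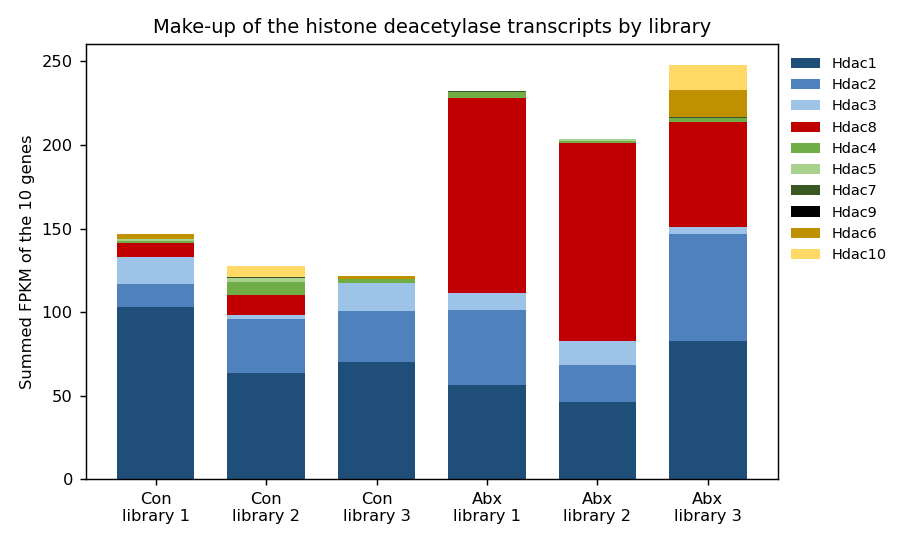
Summed FPKM of the 10 histone deacetylases in each library, stacked by gene, with bars starting at 0. Hdac8, in red, takes 25.2% to 58.2% of the bar in Abx and 0% to 9.53% in Con, and Abx library 3 carries the largest class IIb part.

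As a description with no test, the sums by class follow. Class I transcripts summed to 141, 110 and 117 FPKM in Con and to 228, 201 and 214 FPKM in Abx, which is 123 ± 16.4 against 214 ± 13.6 FPKM (SD, n = 3 each), and every Abx library was above every Con library. The ratio of the group means was 1.74, and it stayed between 1.66 and 1.88 when each library was left out in turn or the values were scaled by the total FPKM of the library. Without Hdac8, class I summed to 116 ± 17.5 FPKM in Con, against 115 ± 34.4 FPKM in Abx (SD, n = 3 each), a ratio of 0.992 with overlapping groups. Over all 10 genes the sum was 132 ± 13.0 FPKM in Con, against 228 ± 22.5 FPKM in Abx (SD, n = 3 each). As a description, the share of the sum held by Hdac8 went from 5.80%, 9.53% and 0% in the Con libraries to 50.2%, 58.2% and 25.2% in the Abx libraries, and that of Hdac1 was 49.6% to 70.4% in Con and 22.8% to 33.4% in Abx. A larger Hdac8 part of the sum lowers the other shares, and the level of Hdac1 itself overlapped between groups.

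Hdac1 (ENSMUSG00000028800, chromosome 4 from 129516104 to 129542713) encodes the catalytic subunit shared by the SIN3, NuRD, CoREST and MiDAC complexes. Its level was 103, 63.4 and 70.1 FPKM in Con, against 56.5, 46.5 and 83.0 FPKM in Abx, which put its mean above that of 89.2% of the genes tested. The groups overlapped, at 78.9 ± 21.3 and 62.0 ± 18.8 FPKM (SD, n = 3 each). The fitted difference was -0.35 (standard error 0.33, 95% confidence interval -1.13 to 0.42, limma adjusted p = 0.761). Its residual SD of 0.39 was larger than that of 17.5% of the genes tested, and its interval was the narrowest of the 7 members tested.

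Reads of Hdac1 can be shared with the processed pseudogene Hdac1-ps (ENSMUSG00000061062, chromosome 17 from 78491582 to 78493025), whose 1444 bases match an Hdac1 transcript at 1435, or 99.4%. The pseudogene was listed at 13.6, 9.64 and 11.8 FPKM in Con, against 8.5, 6.39 and 12.8 FPKM in Abx. Its values were below those of Hdac1 in every library, and how the authors' counting split such reads is not given in the sources used here, so the level of Hdac1 is uncertain.

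Hdac2 (ENSMUSG00000019777, chromosome 10 from 36974544 to 37001889) encodes the close paralog that sits with Hdac1 in these complexes. It was at 13.6, 32.8 and 30.7 FPKM in Con, against 45.0, 21.7 and 64.0 FPKM in Abx. Con library 1 was the lowest and Abx library 3 the highest, and the groups overlapped through Abx library 2. The fitted difference was 0.70 (standard error 0.53, 95% confidence interval -0.53 to 1.94, limma adjusted p = 0.706). The sum of Hdac1 and Hdac2 was 105 ± 10.8 FPKM in Con, against 106 ± 39.5 FPKM in Abx (SD, n = 3 each).

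Hdac3 (ENSMUSG00000024454, chromosome 18 from 37935844 to 37955016) encodes the catalytic subunit of the NCoR/SMRT complex. It was at 16.1, 1.83 and 16.4 FPKM in Con, against 10.3, 14.4 and 4.26 FPKM in Abx. The lowest value of all belonged to Con library 2, and the Abx values lay within the range of Con. The fitted difference was 0.04 (standard error 0.90, limma adjusted p = 0.992). Its sign rested on single libraries, with -0.83 without Con library 2, -0.07 without Abx library 1 and -0.29 without Abx library 2.

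**Figure D3:**
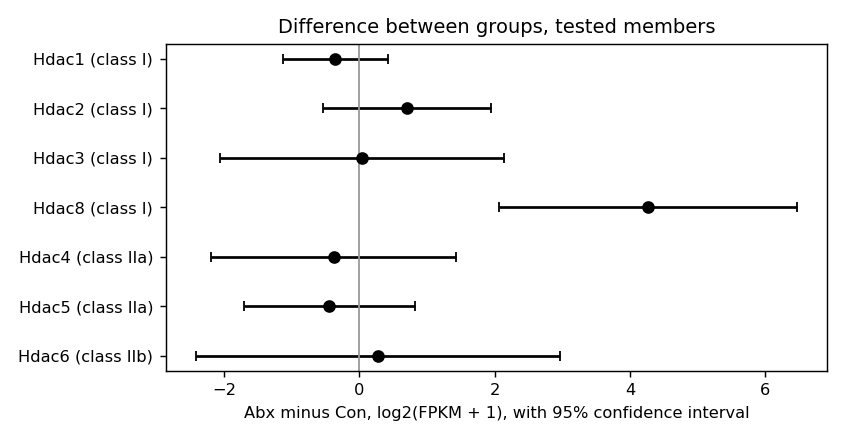
Fitted difference between groups, Abx minus Con on the log2(FPKM + 1) scale, for the 7 members tested, with 95% confidence intervals from limma. The interval of Hdac8 lies above 0, from 2.06 to 6.47, and those of the other members include 0.

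Class IIa transcripts were scarce. They summed to 2.31, 10.6 and 2.91 FPKM in Con and to 3.78, 2.59 and 3.19 FPKM in Abx, which is 1.27% to 8.25% of the family in a library. The ratio of the group means was 0.606 and turned to 1.22 without Con library 2. Hdac4 and Hdac5 passed the filter, with a median fitted difference of -0.41, and Hdac7 and Hdac9 did not.

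Hdac4 (ENSMUSG00000026313, chromosome 1 from 91928779 to 92195699), a regulator of MEF2-dependent transcription, was at 1.16, 8.13 and 2.87 FPKM in Con, against 3.60, 1.28 and 2.31 FPKM in Abx. It was the class IIa member detected at 1 FPKM or more in all 6 libraries, and Con library 2 stood above the others. The fitted difference was -0.38 (standard error 0.78, limma adjusted p = 0.900) and turned to 0.17 without Con library 2. Quantile normalization gave 0.03.

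Hdac5 (ENSMUSG00000008855, chromosome 11 from 102194432 to 102230166), which acts on the same factors, was at 1.14, 2.07 and 0.01 FPKM in Con, against 0.11, 1.25 and 0.05 FPKM in Abx. It reached 1 FPKM in 3 libraries, and in both groups some libraries were close to 0. The fitted difference was -0.45 (standard error 0.54, limma adjusted p = 0.830), and 0.28 with quantile normalization.

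Hdac7 (ENSMUSG00000022475, chromosome 15 from 97792664 to 97844502), known for its role in developing thymocytes, was at 0.01, 0.35 and 0.03 FPKM in Con, against 0.07, 0.06 and 0.82 FPKM in Abx. All values were under 1 FPKM (exact two-sided permutation test, p = 0.5). It overlaps Slc48a1, a heme transporter gene on the other strand that was at 6.95 to 23.3 FPKM. Hdac9 (ENSMUSG00000004698, chromosome 12 from 34047580 to 34917095), a class IIa repressor that also has a form without the catalytic domain, was listed at 0 in 5 libraries and at 0.01 FPKM in Abx library 3.

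Class IIb transcripts were listed at or near 0 in some libraries and at several FPKM in others. Hdac6 (ENSMUSG00000031161, chromosome X from 7930120 to 7947889), the cytoplasmic deacetylase of tubulin, was at 2.95, 0.03 and 1.52 FPKM in Con, against 0.07, 0 and 15.9 FPKM in Abx. Abx library 3 was above all Con libraries and the other Abx libraries were near 0. The fitted difference of 0.27 (standard error 1.16, limma adjusted p = 0.955) came with a residual SD above that of 88.7% of the genes tested. It turned to -1.07 without Abx library 3 and to -0.27 without Con library 2, and to -0.41 and -1.28 at pseudocounts of 0.1 and 0.01.

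Hdac10 (ENSMUSG00000062906, chromosome 15 from 89123307 to 89128700), known as a polyamine deacetylase, was at 0, 7.01 and 0 FPKM in Con, against 0, 0 and 15.4 FPKM in Abx. It was thus listed at 0 in 4 of the 6 libraries and high in a single library of each group (exact two-sided permutation test, p = 1). Abx library 3 held the highest level of both class IIb genes. The class IIb sum was 2.95, 7.04 and 1.52 FPKM in Con, against 0.07, 0 and 31.3 FPKM in Abx, a ratio of the group means of 2.72 that fell to 0.00912 without Abx library 3 and reached 4.68 without Con library 2.

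Deacetylases outside the 3 classes were few or variable. Hdac11, the class IV member, was at 2.09, 0.04 and 0 FPKM in Con, against 0.02, 1.76 and 0 FPKM in Abx. Of the 7 sirtuins, which need NAD in place of zinc, 5 were tested and 0 called, 0 had an unadjusted p under 0.05, and 1 had a positive and 4 a negative fitted difference, with a median of -0.39. Sirt2, a mostly cytoplasmic deacetylase, was the steadiest at 20, 17.5 and 17.5 FPKM in Con, against 6.70, 11.8 and 18.1 FPKM in Abx (fitted difference -0.64, limma adjusted p = 0.716). Sirt7, a nucleolar sirtuin, spread from 9.22 to 18.4 FPKM in Con and from 0.23 to 49.6 FPKM in Abx. Of the mitochondrial sirtuins, Sirt3 was at 2.58, 0 and 1.39 FPKM in Con, against 8.15, 0.02 and 16.8 FPKM in Abx, Sirt5 was at 1.44 to 5.93 FPKM in Con, against 0 to 6.86 FPKM in Abx, and Sirt4 stayed at or under 0.02 FPKM. Sirt1, a nuclear sirtuin, stayed under 1 FPKM, and Sirt6, another, was listed at 0 in 2 libraries.

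The genes around the deacetylases were read from the same fit. Of the 91 genes in the lists of other deacetylases, partners, regulators and butyrate-related genes, 70 were tested and 0 were called by limma. At an unadjusted p under 0.05, 2 were higher (Gatad2a and Brd2) and 4 were lower (Sap18, Sap30l, Ffar2 and Slc16a3), where 4.74% of all genes tested were higher and 6.25% lower. In 5 of the 70 the Abx libraries lay above and in 5 below all Con libraries, where the shares over all genes tested were 8.49% and 8.73%. The median fitted difference was -0.03.

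Corepressor subunits that carry class I enzymes were tested in 32 of 37 cases, with 16 positive and 16 negative fitted differences. Of the SIN3 list, 12 of 13 were tested, with a median of -0.35 that moved to 0.02 without Abx library 1, -0.63 without Abx library 2, 0.04 without Abx library 3 and -0.13 without Con library 3. Sap18, a SIN3 subunit that also takes part in RNA splicing, was at 133, 136 and 151 FPKM in Con, against 98.7, 82.4 and 78.6 FPKM in Abx. Its groups were tight and apart, at 140 ± 9.89 and 86.5 ± 10.7 FPKM (SD, n = 3 each), with a fitted difference of -0.69 (standard error 0.23, limma adjusted p = 0.264). Sap30l, another SIN3 subunit, was at 5.99, 6.43 and 2.41 FPKM in Con, against 0.29, 0 and 2.72 FPKM in Abx, where the groups overlapped through the libraries numbered 3 (fitted difference -1.74, limma adjusted p = 0.453).

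In the NuRD list 9 of 11 were tested, with a median of 0.21, which ranged from -0.38 to 0.32 as each library was left out. Gatad2a, a structural NuRD subunit, was at 28.0, 29.7 and 55.1 FPKM in Con, against 146, 66.6 and 81.5 FPKM in Abx. All Abx values were above all Con values, with a fitted difference of 1.35 (standard error 0.41, limma adjusted p = 0.229). Rbbp7, the histone-binding subunit that NuRD shares with SIN3, was the most abundant gene of the list at 214 ± 36.7 FPKM in Con, against 174 ± 21.7 FPKM in Abx (SD, n = 3 each; fitted difference -0.29, limma adjusted p = 0.712).

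Of the CoREST list 4 of 5 were tested, with a median of 0.79 that was 0.25 without Con library 1, and of MiDAC 2 of 3, with a median of 0.52 that was -0.13 without Abx library 3 and 0.91 without Abx library 2, and in neither did the groups of any tested gene separate. Rcor1, the CoREST scaffold, was at 3.51, 7.95 and 17.5 FPKM in Con, against 7.59, 19.2 and 33.7 FPKM in Abx (95% confidence interval of the fitted difference -0.78 to 2.79, limma adjusted p = 0.708). Kdm1a, its histone demethylase, spread from 1.79 to 17.1 FPKM in Con and from 3.88 to 24.5 FPKM in Abx. Dnttip1, the MiDAC scaffold, was at 18.5, 36.9 and 16.7 FPKM in Con, against 24.0, 40.8 and 51.9 FPKM in Abx (fitted difference 0.70, limma adjusted p = 0.669).

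Of the NCoR/SMRT complex, which activates Hdac3, 5 of 5 were tested, with a median of -0.19 that turned to 0.12 without Abx library 1. Ncor1, its scaffold, was at 30.6, 24.8 and 29.5 FPKM in Con, against 34.0, 36.0 and 49.4 FPKM in Abx (fitted difference 0.46, limma adjusted p = 0.694). Tbl1x, another subunit, was at 5.81, 11.7 and 10.3 FPKM in Con, against 0.23, 5.54 and 4.23 FPKM in Abx (fitted difference -1.51, limma adjusted p = 0.603). These NCoR/SMRT subunits separated the groups in opposite directions, and neither had an unadjusted p under 0.05.

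For the partners of class IIa enzymes, 3 of 4 MEF2 factors, 7 of 7 14-3-3 proteins and 10 of 13 kinases were tested, and 0 had an unadjusted p under 0.05. Mef2d, the most abundant MEF2 factor, was at 6.91, 9.12 and 11.2 FPKM in Con, against 16.8, 20.7 and 0.11 FPKM in Abx, so that Abx library 3 stood apart below the rest (fitted difference -0.40, limma adjusted p = 0.930). Ywhab, an abundant 14-3-3 protein, was nearly equal at 230 ± 25.2 FPKM in Con, against 230 ± 14.2 FPKM in Abx (SD, n = 3 each), a fitted difference of 0.00 with a 95% confidence interval from -0.45 to 0.45. Sik3, a kinase that keeps class IIa enzymes in the cytoplasm, was at 14.4, 16.4 and 12.1 FPKM in Con, against 8.58, 2.58 and 6.78 FPKM in Abx (fitted difference -1.24, limma adjusted p = 0.543). Camk2g, a calcium-dependent kinase, was at 5.98, 3.19 and 4.34 FPKM in Con, against 12.7, 9.60 and 10.1 FPKM in Abx (fitted difference 1.12, limma adjusted p = 0.587). The groups of both kinases were apart, in opposite directions, and Prkd2, another kinase of the list, was also higher in Abx without overlap. Of the 10 kinases tested, 2 were thus higher and 1 lower, where the shares over all genes tested were 8.49% and 8.73%.

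Enzymes and readers on the acetylated side were also listed. Of 10 histone acetyltransferases 7 were tested, with a median of 0.09, which ranged from -0.14 to 0.25 as each library was left out, and 0 at an unadjusted p under 0.05. Hat1, which acetylates newly made histones, was the most abundant at 35.1, 21.9 and 10.5 FPKM in Con, against 35.2, 29.9 and 9.20 FPKM in Abx, with overlap. Brd2, a BET protein that binds acetylated histones, was at 7.13, 5.94 and 9.26 FPKM in Con, against 16.3, 17.3 and 20.2 FPKM in Abx. All Abx values were above all Con values, by a fitted difference of 1.18 (standard error 0.50, limma adjusted p = 0.450).

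**Figure D4:**
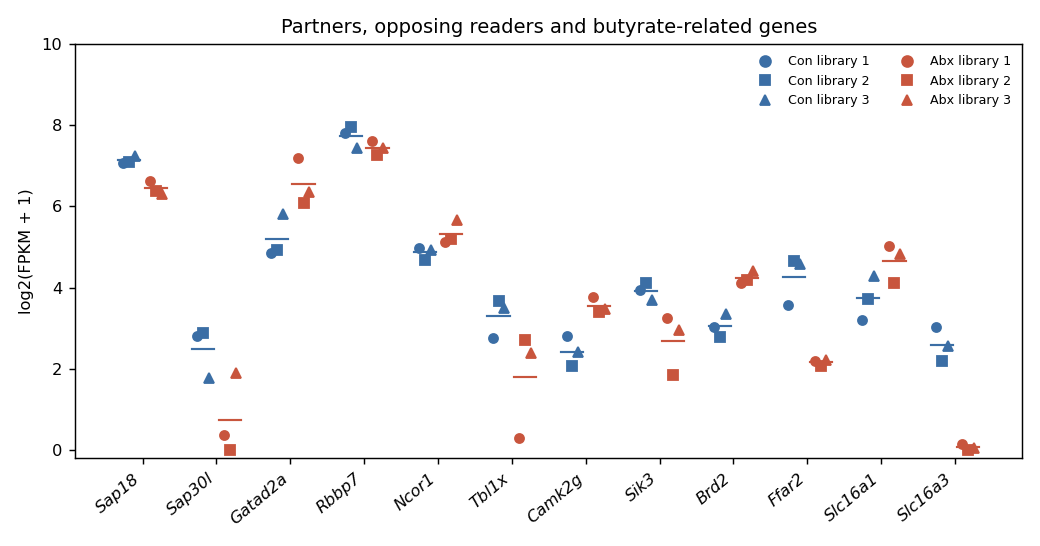
Level, as log2(FPKM + 1), of corepressor subunits (Sap18, Sap30l, Gatad2a, Rbbp7, Ncor1, Tbl1x), class IIa kinases (Camk2g, Sik3), the reader Brd2 and short-chain fatty acid receptor and transporter genes (Ffar2, Slc16a1, Slc16a3) in 3 Con and 3 Abx libraries, with lines at group means. Groups are apart for Sap18, Gatad2a, Ncor1, Tbl1x, Camk2g, Sik3, Brd2, Ffar2 and Slc16a3, and none of these genes was called. The genes shown are among those with the smallest unadjusted p of their lists, so they do not stand for the lists. Of the 70 list genes tested, 5 were higher and 5 lower without overlap. Over all genes tested the shares were 8.49% and 8.73%.

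Of the 8 genes that sense or carry short-chain fatty acids, 3 (Ffar2, Slc16a1 and Slc16a3) were tested and 0 called. Ffar2, the receptor for acetate, propionate and butyrate, was at 10.9, 24.4 and 22.9 FPKM in Con, against 3.61, 3.21 and 3.64 FPKM in Abx. The lowest Con library was above the highest Abx library, with a fitted difference of -2.11 (standard error 0.62, 95% confidence interval -3.54 to -0.68, limma adjusted p = 0.200). Ffar3, its relative, was listed at 0 in all 6 libraries. Hcar2, the receptor for butyrate and niacin, was at 15.1, 0 and 7.41 FPKM in Con, against 0, 0.06 and 0.12 FPKM in Abx, too few libraries for the test across genes (exact two-sided permutation test, p = 0.4).

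Slc16a1, which encodes the monocarboxylate transporter MCT1, was at 8.24, 12.1 and 18.5 FPKM in Con, against 31.5, 16.2 and 27.4 FPKM in Abx, with overlap (fitted difference 0.92, limma adjusted p = 0.579). Slc16a3, which encodes MCT4, was at 7.18, 3.57 and 4.94 FPKM in Con, against 0.11, 0.01 and 0.04 FPKM in Abx. Its fitted difference was -2.52 (standard error 0.52, limma adjusted p = 0.0967), and it passed the filter through the Con libraries alone, so that by the filter it had to differ. Slc16a7, which encodes MCT2, stayed at or under 0.01 FPKM, and Slc5a8 and Slc5a12, sodium-coupled transporters, were listed at 0 throughout.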

How the data were processed

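SMART-seq libraries were compared between Abx (n = 3) and Con (n = 3), grouped by the sample labels. The deposited values are FPKM, which the authors made with Cutadapt, HISAT2 and StringTie as their methods state. The methods name a human annotation, while identifiers are mouse Ensembl. The submitters' processing notes name Bowtie 0.12.2 and the builds mm8 and mm9. Coordinates are those of GENCODE M21 (GRCm38), in which 55134 of the 55394 identifiers were found. Whether the counting used strand is not given in the sources used here. The depth in reads is unknown, and the authors' DESeq2 step, which needs counts, was not repeated.

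Genes that reached 1 FPKM in 3 or more libraries were fitted in limma 3.58.1 (R 4.3.3; lmFit, eBayes with trend = TRUE) on log2(FPKM + 1), which understates changes of low genes. Genes under the filter were given an exact permutation test. Named genes were the 10 members, Hdac11, the sirtuins, Ffar2, Ffar3 and Hcar2, and in each other list the up to 3 tested genes with the smallest p and the most abundant one; not all of these are described, and some are given only by list. Slc16a7, Slc5a8, Slc5a12, Polr2h and the neighbours of Hdac8 were added after their values were seen. Of the marker lists, the rule was to name defining markers whose group levels moved with a result, which picks them by their values. Some other genes of these lists were added. The members and lists were chosen with earlier results of these data known. Alternatives were pseudocounts of 0.1 and 0.01, quantile normalization, median centring, 2 other filters, robust variance, no fold limit, unadjusted p, a replicate block and each library left out. For the difference of each member, taking every entry with the symbol was also listed, and it repeats the main fit. The same replicate number did not pair libraries. Promoters came from RefSeq (GRCm38.p6), with an entry for 7 of the 10 members.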

Additional observations from a re-analysis of the deposited data

How the results depend on the processing

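No call among the histone deacetylases was made under 15 of 16 alternatives, and 1, Hdac8, was made with the unadjusted p. Over all genes, the 4 calls higher in Abx became 0 with a pseudocount of 0.1 or 0.01, with no filter or with the replicate block, and 315 with the unadjusted p, and 0 without each library in turn. The 1 call lower in Abx became 0 with these pseudocounts, no filter or the replicate block, 2 with quantile normalization or a mean of at least 5 FPKM, 499 with the unadjusted p, and 0 to 2 without each library. The ratio of summed class IIa FPKM was 1.22 without Con library 2 and 0.474 to 0.663 otherwise. The sign turned for Hdac6 (-0.41 and -1.28 at pseudocounts of 0.1 and 0.01; -1.07 to 0.97 without each library), for Hdac4 (0.029 with quantile normalization; -0.87 to 0.17 without each library), for Hdac5 (0.28 with quantile normalization) and for Hdac3 (-0.83 to 0.48 without each library); the cause was not tested. Same-numbered libraries did not deviate together (correlations of -0.02, -0.03 and 0.01), and in the block the limma adjusted p of Hdac8 was 0.293.

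With 3 libraries a group and no read counts, low values cannot be given a counting error.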
